A study of Homo sapiens with 26 samples.

Results

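The genes described here make and load MHC class I molecules, the surface proteins that show peptides from inside a cell to cytotoxic T cells. They are 9 genes of the 30331 that the TPM table names: the heavy chain genes HLA-B, HLA-C, HLA-E and HLA-F, the light chain gene B2M, the peptide transporter genes TAP1 and TAP2, and the immunoproteasome subunit genes PSMB8 and PSMB9. They were chosen by name, as rows of that table, and all 9 passed the filter on low values that 14079 genes passed. RNA was sequenced from ZR751 tumors, a hormone receptor positive, HER2 negative human breast cancer line, grown under the skin of 13 female NSG mice, a strain that lacks lymphocytes and keeps myeloid cells. Resistant tumors came from 5 mice given the CDK4 inhibitor atirmociclib by mouth for 84 to 91 days (time label 2040 hours), at 60 mg/kg 2 times a day with 7 hours between doses. Sensitive tumors came from 3 mice given the same dose for 3 days, and vehicle tumors from 5 mice given vehicle for 3 days, whose treatment label reads DMSO. The mice of both studies were to begin dosing at a tumor volume of about 150 mm3. The 3-day tumors were taken 3 hours after the last dose. Since the long treatment was a study of its own with no vehicle mice here, a difference of resistant tumors from either other group may belong to the study, the length of treatment or resistance, and these cannot be told apart. All samples are 1 cell line, and each mouse gave 2 libraries, A and B, which were averaged so that the mouse is the replicate. The labels do not say where in the work A and B parted.

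A class I molecule is a heavy chain bound to the light chain beta-2 microglobulin, the B2M product, and to a short peptide. Proteasomes cut the peptides. In cells that make the immunoproteasome, the subunits encoded by PSMB8 and PSMB9 stand in for the constitutive catalytic subunits encoded by PSMB5 and PSMB6. TAP1 and TAP2 form the transporter that moves the peptides into the endoplasmic reticulum, where the loading complex places them on new class I molecules. Interferons raise most of these genes, in part through the factor IRF1, and the coactivator NLRC5 acts on their promoters. HLA-B and HLA-C are classical heavy chains, while HLA-E and HLA-F are nonclassical ones with few alleles that are known as ligands of natural killer cell receptors.

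On GRCh38 with GENCODE 29 annotation, 8 of the 9 genes lie in the MHC on chromosome 6. HLA-F lies at chr6:29722775-29738528 and HLA-E at chr6:30489467-30494205, both on the plus strand. HLA-C lies at chr6:31268749-31272130 and HLA-B at chr6:31269491-31357188, both on the minus strand and with overlapping annotated spans. The last 4 form a cluster, with TAP2 at chr6:32821833-32838780, PSMB8 at chr6:32840717-32844703 and TAP1 at chr6:32845209-32853978 on the minus strand, and PSMB9 at chr6:32844136-32859585 on the plus strand. B2M lies apart from them at chr15:44711487-44718877 on the plus strand.

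The 250 bases before the transcription start are shown for 4 genes, from RefSeq on GRCh38.p14: B2M and HLA-F, which were higher in resistant than in vehicle tumors, and TAP1 and PSMB9, which were lower there. The table holds promoters for 8 of the 9 genes; HLA-E has no entry. Each sequence runs 5′ to 3′ in the direction of its gene. Capitals mark matches on either strand to the interferon-stimulated response element core GAAANNGAA, the gamma-activated site TTCNNNGAA, the CCAAT box, the kB sequence GGGGATTCC and the CRE-like sequence TGACG.
B2M, chr15:44711267-44711516, plus strand: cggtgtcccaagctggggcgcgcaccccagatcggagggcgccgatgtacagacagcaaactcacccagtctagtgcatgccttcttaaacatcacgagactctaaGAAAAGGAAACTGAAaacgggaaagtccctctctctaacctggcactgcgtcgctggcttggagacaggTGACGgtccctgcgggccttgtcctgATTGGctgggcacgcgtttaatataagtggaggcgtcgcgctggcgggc
HLA-F, chr6:29723184-29723433, plus strand: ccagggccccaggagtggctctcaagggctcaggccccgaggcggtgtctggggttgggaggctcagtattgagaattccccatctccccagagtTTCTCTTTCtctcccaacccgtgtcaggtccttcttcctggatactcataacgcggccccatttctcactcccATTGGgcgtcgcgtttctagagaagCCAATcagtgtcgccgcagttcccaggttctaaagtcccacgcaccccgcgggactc
TAP1, chr6:32853705-32853954, minus strand: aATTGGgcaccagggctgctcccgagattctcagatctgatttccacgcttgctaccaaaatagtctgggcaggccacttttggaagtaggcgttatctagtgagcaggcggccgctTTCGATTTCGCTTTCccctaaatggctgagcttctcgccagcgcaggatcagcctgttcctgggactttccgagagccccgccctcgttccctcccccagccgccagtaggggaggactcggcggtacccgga
PSMB9, chr6:32853942-32854191, plus strand: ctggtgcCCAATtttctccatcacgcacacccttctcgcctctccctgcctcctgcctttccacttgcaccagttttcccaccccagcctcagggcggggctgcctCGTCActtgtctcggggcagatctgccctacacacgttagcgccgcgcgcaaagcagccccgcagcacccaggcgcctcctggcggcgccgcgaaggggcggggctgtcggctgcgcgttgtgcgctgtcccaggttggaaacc

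The interferon-stimulated response element core was in the windows of 4 of the 8 genes (B2M, HLA-F, TAP1 and TAP2), where 6.88% of 35116 human promoter windows of the same length hold it. B2M holds a pair of overlapping matches that begin 144 and 138 bases before the start, and TAP1 a pair on the opposite strand that begin 133 and 127 bases before its first listed start. HLA-F has a single match, also on the opposite strand, 155 bases before the start. No match to these letters lies in the PSMB9 window, which begins next to that of TAP1: the starts of these oppositely directed genes have 487 bases between them, and the windows share 13 bases. The CCAAT box was in 6 of the 8 genes and in 32.0% of all windows, and TGACG in 6 of the 8 genes and in 21.2% of all windows. The gamma-activated site was in 2 of the 8 genes, at the second listed starts of TAP1 and PSMB8, and in 6.57% of all windows. GGGGATTCC was in the HLA-B window alone of the 8, and in 0.253% of all windows. TAP1 and PSMB8 have 2 listed starts and so 2 windows each, so the counts of genes and the shares of windows are in unlike units. Matches were searched on both strands, may overlap, and are a description of these letters only.

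Per transcript length, the genes spanned a wide range of levels with the same ends in every group. B2M was the highest of the 9, with a mean of 399 TPM in resistant, 199 TPM in sensitive and 313 TPM in vehicle tumors, and PSMB9 the lowest, with 1.73, 1.27 and 3.50 TPM in the same groups. HLA-C and then HLA-E came next in all 3 groups, and the ranges over mice of B2M, HLA-C and HLA-E did not overlap each other in any group. Below them the order of neighbours shifted. In resistant tumors the ranges of HLA-B and HLA-F, of HLA-F and TAP1, and of TAP1 and TAP2 overlapped. In sensitive tumors every neighbouring pair from HLA-B through PSMB8, TAP1 and TAP2 to HLA-F overlapped. In vehicle tumors HLA-B and TAP1 were the only neighbours in the order whose ranges overlapped.

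**Figure D1:**
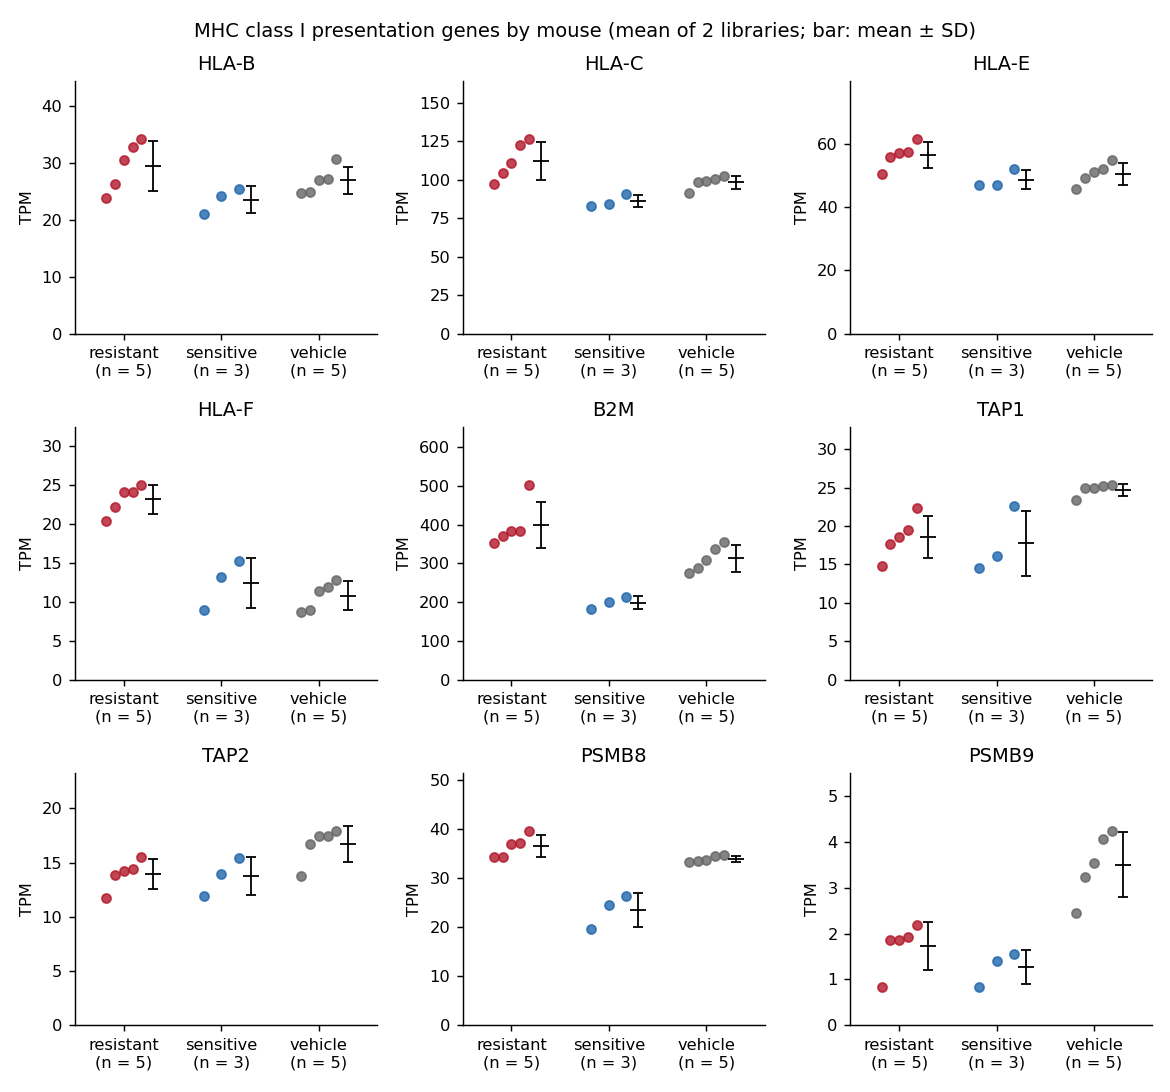
TPM of each of the 9 genes by mouse (points; mean of the 2 libraries of a mouse), with the mean ± SD of each group as a bar, for 5 resistant, 3 sensitive and 5 vehicle tumors. B2M, HLA-C, HLA-F and PSMB8 had every resistant mouse above every sensitive mouse, and TAP1 and PSMB9 had every resistant mouse below every vehicle mouse.

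Sensitive and vehicle tumors were compared to ask what 3 days of the inhibitor did. B2M, PSMB8, PSMB9 and TAP1 fell, none of the 9 genes rose, and the other 5 (HLA-B, HLA-C, HLA-E, HLA-F and TAP2) were not called at an adjusted p under 0.05. Over all genes tested, 12.6% were called lower and 3.16% higher. The median change of the 9 was -0.19 on the log2 scale. Changes are given relative to the median of all genes, so that the median of all genes is 0. Calls and adjusted p values test the fitted change, from which that median is not taken off. In 5 of the 9 genes every sensitive mouse was below every vehicle mouse, and groups did not overlap in 21.8% of all genes tested.

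Resistant and sensitive tumors were compared to ask what differed between early and long treatment. B2M, HLA-F, PSMB8 and HLA-C rose and none of the 9 fell, against 9.56% of all genes called higher and 11.6% called lower. The median change of the 9 was 0.35. Every resistant mouse was above every sensitive mouse in these 4 genes, and groups did not overlap in 30.4% of all genes tested. TAP1, TAP2 and PSMB9 were not called, with changes of 0.12, 0.07 and 0.30.

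Resistant and vehicle tumors were compared to ask how tumors under long treatment stood against untreated ones. HLA-F and B2M rose, PSMB9 and TAP1 fell, and 5 were not called, against 11.5% of all genes called higher and 32.5% called lower. The median change of the 9 was 0.26. Groups did not overlap in HLA-F, PSMB9 and TAP1, as in 27.3% of all genes tested. This split depended on scaling: with median-of-ratios scaling or quantile normalization, HLA-C, HLA-E and PSMB8 were also called higher and TAP1 was no longer called lower, which gave 5 higher and 1 lower. Over all genes the higher and lower calls were 1624 and 4570 as fitted, against 2540 and 2439 under the median-of-ratios scaling and 2333 and 2773 under quantile normalization. The same settings gave 771 and 1066, and 938 and 989, in sensitive versus vehicle tumors (445 and 1767 as fitted), and 1713 and 1335, and 1464 and 1806, in resistant versus sensitive tumors (1346 and 1631 as fitted). The 3 comparisons share their mice in pairs, so their results for a gene are not independent of each other.

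**Figure D2:**
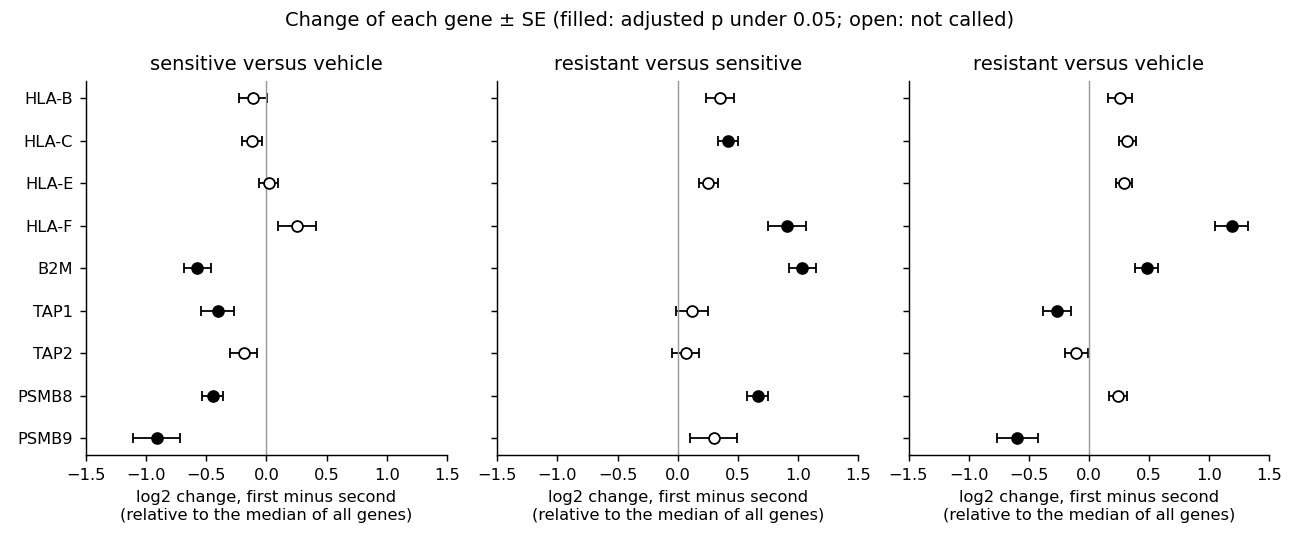
Log2 change ± SE of each gene, first-named group minus second, relative to the median of all genes, in the 3 comparisons; filled points were called at an adjusted p under 0.05 and open points were not. B2M lies at -0.58, 1.04 and 0.48 from left to right, while PSMB9 lies at -0.91, 0.30 and -0.59. The calls test the fitted changes, before the median of all genes is taken off, and not the plotted values.

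B2M was measured at 371, 383, 502, 384 and 353 TPM in the 5 resistant mice, at 201, 182 and 214 TPM in the 3 sensitive mice and at 356, 275, 288, 339 and 308 TPM in the 5 vehicle mice. The sensitive mice lay below all others. The highest value was that of resistant mouse 9-7, and the lowest resistant mouse lay just under the highest vehicle mouse. B2M changed by -0.58 ± 0.11 (SE) in sensitive versus vehicle tumors (adjusted p = 0.00152). It changed by 1.04 ± 0.11 in resistant versus sensitive tumors (adjusted p = 1.76e-04), the largest change of the 9 there. In resistant versus vehicle tumors it changed by 0.48 ± 0.10 (adjusted p = 0.0121), with overlapping groups. These calls held under all 25 alternatives tried, each mouse left out in turn included.

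Of the classical heavy chains, HLA-C was the more abundant per length. HLA-C was measured at 111, 97.2, 126, 122 and 104 TPM in resistant mice, at 84.4, 83.0 and 90.7 TPM in sensitive mice and at 98.6, 100, 102, 91.5 and 98.9 TPM in vehicle mice. The sensitive mice were below all others, and 4 of 5 resistant mice were above every vehicle mouse. HLA-C changed by 0.42 ± 0.08 in resistant versus sensitive tumors (adjusted p = 0.00769), by -0.12 ± 0.08 in sensitive versus vehicle tumors (adjusted p = 0.134) and by 0.32 ± 0.07 in resistant versus vehicle tumors (adjusted p = 0.0528). The last of these, fitted at 0.18 before the median was taken off, passed the threshold with either other scaling (adjusted p = 0.00215 and 0.00547). It also did so without resistant mouse 9-6 (0.0175), resistant mouse 9-9 (0.0461) or vehicle mouse 1-5 (0.0497).

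HLA-B was measured at 30.4, 26.3, 34.1, 32.8 and 23.7 TPM in resistant mice, at 21.0, 24.2 and 25.4 TPM in sensitive mice and at 30.7, 27.0, 27.2, 24.7 and 24.9 TPM in vehicle mice. The groups overlapped in all 3 comparisons, and HLA-B was called in none of them. Its change in resistant versus sensitive tumors, 0.35 ± 0.12, had an adjusted p of 0.0778, which became 0.0288 without resistant mouse 9-9 and 0.0480 with median-of-ratios scaling. The summed TPM of HLA-B, HLA-C, HLA-E and HLA-F was 221 ± 18.7 in resistant, 171 ± 11.5 in sensitive and 186 ± 5.85 in vehicle tumors (SD, n = 5, 3 and 5 mice).

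HLA-F, the nonclassical heavy chain known in part for open forms without peptide, rose in resistant tumors relative to both other groups and was not called in sensitive versus vehicle tumors. HLA-F was measured at 24.9, 20.4, 24.1, 22.1 and 24.1 TPM in resistant mice, at 8.93, 13.2 and 15.2 TPM in sensitive mice and at 11.9, 11.4, 8.63, 12.8 and 8.99 TPM in vehicle mice. Every resistant mouse was above every other mouse, and sensitive and vehicle mice overlapped. HLA-F changed by 1.19 ± 0.14 in resistant versus vehicle tumors (adjusted p = 6.43e-05), the largest change of the 9 in that comparison. In resistant versus sensitive tumors it changed by 0.91 ± 0.16 (adjusted p = 0.00263), and in sensitive versus vehicle tumors by 0.26 ± 0.16 (adjusted p = 0.465).

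HLA-E, the heavy chain that shows leader peptides of other class I molecules to natural killer cell receptors, was not called in any comparison. It was measured at 50.3, 57.1, 61.3, 57.4 and 55.7 TPM in resistant mice, at 46.8, 46.8 and 52.0 TPM in sensitive mice and at 45.6, 51.9, 54.7, 49.1 and 51.2 TPM in vehicle mice. Of the 5 resistant mice, 4 were above every sensitive and every vehicle mouse. HLA-E changed by 0.26 ± 0.08 in resistant versus sensitive tumors (adjusted p = 0.0696), by 0.02 ± 0.08 in sensitive versus vehicle tumors (adjusted p = 0.679) and by 0.29 ± 0.07 in resistant versus vehicle tumors (adjusted p = 0.0763). The changes with resistant tumors passed the threshold after median-of-ratios scaling (adjusted p = 0.0245 against sensitive and 0.00306 against vehicle), after quantile normalization (0.0355 and 0.00337) and without resistant mouse 9-3 (0.0424 and 0.0365). The change against vehicle also did so without vehicle mouse 1-5 (0.0438). Its fitted value, which the adjusted p tests, was 0.16 before the median of all genes was taken off.

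TAP1 was measured at 17.7, 14.7, 18.6, 22.3 and 19.5 TPM in resistant mice, at 22.5, 16.1 and 14.6 TPM in sensitive mice and at 23.3, 24.9, 25.2, 25.0 and 25.3 TPM in vehicle mice. All treated mice were below all vehicle mice, and resistant and sensitive mice overlapped fully. TAP1 changed by -0.41 ± 0.13 (fitted -0.48) in sensitive versus vehicle tumors (adjusted p = 0.0275). In resistant versus vehicle tumors it changed by -0.27 ± 0.12 (fitted -0.41, adjusted p = 0.0122). Other scalings ended both calls, with adjusted p values of 0.0556 and 0.0726 after median-of-ratios scaling, and 0.0740 and 0.111 after quantile normalization. The call in sensitive tumors also ended without sensitive mouse 6-5 (0.135) or 6-6 (0.161) and without vehicle mouse 1-9 (0.0537).

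TAP2, the partner of TAP1 in the transporter, had smaller differences. It was measured at 14.4, 11.8, 14.2, 15.6 and 13.8 TPM in resistant mice, at 15.4, 14.0 and 11.96 TPM in sensitive mice and at 13.8, 16.7, 17.5, 17.5 and 17.9 TPM in vehicle mice. Of the vehicle mice, 1-2 was as low as the treated mice and the other 4 were above all of them. TAP2 was not called in any comparison, with changes of -0.19 ± 0.11 in sensitive versus vehicle (adjusted p = 0.130), 0.07 ± 0.11 in resistant versus sensitive (adjusted p = 0.918) and -0.10 ± 0.10 in resistant versus vehicle tumors (adjusted p = 0.0571). The last was fitted at -0.24 before the median of all genes was taken off. It was called without vehicle mouse 1-2 (adjusted p = 0.0210), without resistant mouse 9-8 (0.0435) and in A libraries alone (0.0396). The change in sensitive versus vehicle tumors was called when mice were weighted (0.0362). In the GENCODE 29 transcripts, 35.5% of the 75-base windows of TAP2 also lie in AL669918.1, a transcript of the same strand, so its reads may be divided with that entry.

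PSMB8, which encodes the subunit that stands in for PSMB5 in the immunoproteasome, fell in sensitive versus vehicle tumors and rose in resistant versus sensitive tumors. PSMB8 was measured at 34.3, 37.0, 37.1, 34.2 and 39.6 TPM in resistant mice, at 26.3, 19.7 and 24.5 TPM in sensitive mice and at 33.3, 34.5, 34.6, 33.7 and 33.4 TPM in vehicle mice. The sensitive mice were below all others, and resistant and vehicle mice overlapped. PSMB8 changed by -0.45 ± 0.09 in sensitive versus vehicle tumors (adjusted p = 0.00113) and by 0.67 ± 0.09 in resistant versus sensitive tumors (adjusted p = 6.02e-04). Its change in resistant versus vehicle tumors, 0.24 ± 0.08 (fitted 0.10), was not called (adjusted p = 0.289). It passed under the other scalings, median-of-ratios (0.0123) and quantile (0.0139).

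PSMB9, which encodes the subunit that stands in for PSMB6, fell in both kinds of treated tumors relative to vehicle tumors. PSMB9 was measured at 1.93, 0.830, 2.18, 1.86 and 1.86 TPM in resistant mice, at 1.56, 1.4 and 0.845 TPM in sensitive mice and at 3.23, 4.24, 4.06, 2.45 and 3.54 TPM in vehicle mice. All treated mice were below all vehicle mice. PSMB9 changed by -0.91 ± 0.20 in sensitive versus vehicle tumors (adjusted p = 0.00390) and by -0.59 ± 0.17 in resistant versus vehicle tumors (adjusted p = 0.00365). In resistant versus sensitive tumors the change of 0.30 ± 0.20 was not called (adjusted p = 0.375). At these low levels the size depended on the pseudocount, and with 0.1 TPM in place of 1 TPM the changes against vehicle were -1.35 and -0.87 with the same calls, while the early call ended in B libraries alone (adjusted p = 0.0686). The A and B libraries of a mouse differed more for PSMB9 than for the other 8 genes, with a median coefficient of variation of 23.4% against 1.86% to 6.35%, and reached 2.62 and 1.10 TPM in resistant mouse 9-9.

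Some reads of these genes could be shared with other annotated transcripts, and no source used here says whether counting used strand. On the opposite strand, 36.1% of the 75-base windows of HLA-F, 27.5% of PSMB8, 15.4% of HLA-B, 13.4% of TAP1 and 9.05% of PSMB9 match another annotated transcript. PSMB8-AS1 is the main such transcript for PSMB8 and TAP1. Without strand, reads of a gene and its antisense partner cannot be told apart, and the values of these 5 genes carry that limit. B2M shares no window on either strand. On the same strand, the heavy chain genes share at most 2.02% of their windows with another gene in the reference, and the alleles of the cell line were not analysed here. PSMB9 also shares 9.05% of its windows with PSMB8-AS1 on the same strand, where use of strand would not part them.

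Ratios within a mouse, which do not depend on how a library is scaled, were compared with an exact two-sided permutation test over mice. The test was run for 4 ratios in 3 comparisons, and p values were adjusted over these 12. The smallest p the design allows is 0.0179 for 3 against 5 mice and 0.00794 for 5 against 5. The ratio of PSMB8 to PSMB5 on the log2 scale averaged -3.28 ± 0.16 in sensitive and -2.91 ± 0.07 in vehicle tumors (SD, n = 3 and 5), a difference of -0.36 (exact permutation adjusted p = 0.0429). It averaged -2.75 ± 0.14 in resistant tumors, 0.53 above sensitive (exact permutation adjusted p = 0.0429) and 0.17 above vehicle tumors (exact permutation adjusted p = 0.0833).

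The ratio of PSMB9 to PSMB6 averaged -6.45 ± 0.52 in resistant, -6.67 ± 0.54 in sensitive and -5.48 ± 0.45 in vehicle tumors. It was 1.19 log2 units lower in sensitive than in vehicle tumors (exact permutation adjusted p = 0.0429) and 0.97 lower in resistant than in vehicle tumors (exact permutation adjusted p = 0.0476), while resistant and sensitive tumors differed by 0.22 (exact permutation adjusted p = 0.607). The summed heavy chains relative to B2M averaged -0.84 ± 0.13 in resistant, -0.22 ± 0.10 in sensitive and -0.74 ± 0.19 in vehicle tumors. The ratio was 0.52 higher in sensitive than in vehicle tumors and 0.62 lower in resistant than in sensitive tumors (exact permutation adjusted p = 0.0429 for each), with every sensitive mouse above every other mouse. The ratio of TAP1 to TAP2 averaged 0.40 ± 0.10 in resistant, 0.35 ± 0.18 in sensitive and 0.57 ± 0.11 in vehicle tumors, and none of its 3 differences passed the threshold (exact permutation adjusted p = 0.0680 to 0.607). All 6 ratio differences that passed stood close to the threshold and missed it in A libraries alone, in B libraries alone, with a pseudocount of 1 TPM and when most single mice were left out, in the same direction each time.

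**Figure D3:**
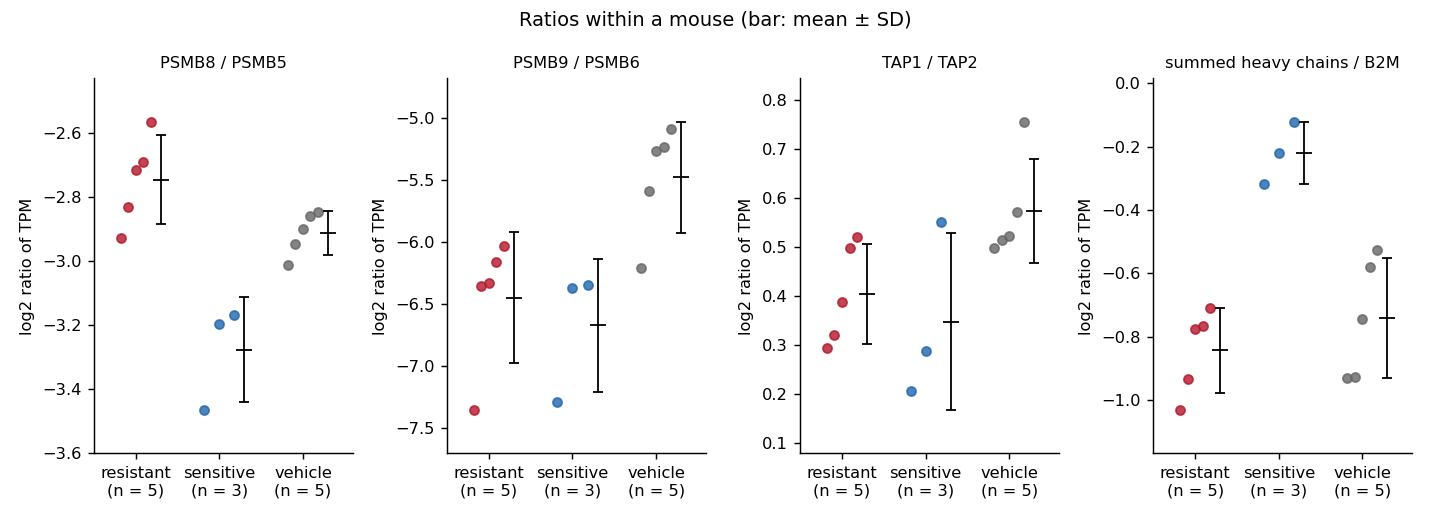
Log2 ratio of TPM within each mouse (points) with the mean ± SD of each group, for PSMB8 to PSMB5, PSMB9 to PSMB6, TAP1 to TAP2, and the summed heavy chains to B2M; the vertical axes do not begin at 0. The sensitive mice lie apart from the other groups for PSMB8 to PSMB5 and for the heavy chains to B2M, while for PSMB9 to PSMB6 resistant and sensitive mice overlap and lie below 4 of the 5 vehicle mice.

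The 9 genes did not vary as a single block over the 13 mice. As a description of log2(TPM + 1), with mice that share a group, the Pearson r was positive in 27 of the 36 pairs and had a median of 0.37. B2M went with PSMB8 (r = 0.86) and HLA-C (r = 0.84), and TAP1 with TAP2 (r = 0.90) and PSMB9 (r = 0.86), whereas B2M and TAP2 had an r of -0.00 and HLA-F and TAP1 an r of -0.57. For deviations from the group means, which leave only the differences among mice of a group, r was 0.80 for TAP1 and TAP2, 0.61 for TAP1 and PSMB9, 0.76 for HLA-B and HLA-C, but 0.14 for B2M and PSMB8. Among resistant mice, 9-7 had the highest B2M, HLA-B, HLA-C, HLA-E and PSMB9, and 9-6 the lowest HLA-C, HLA-F, TAP1, TAP2 and PSMB9.

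**Figure D4:**
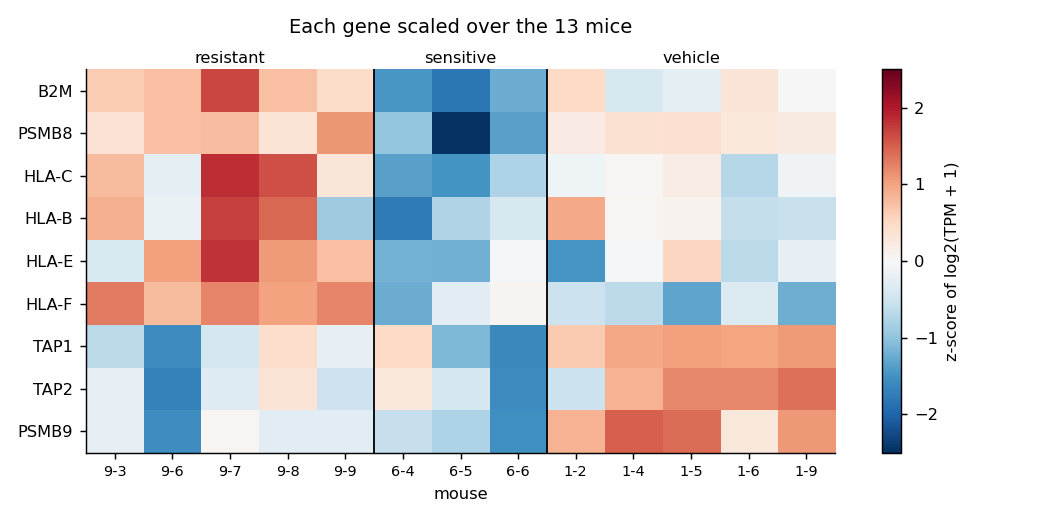
Z-score of log2(TPM + 1) of each gene over the 13 mice (colour), with genes down the page and mice across it, grouped as resistant, sensitive and vehicle. B2M, PSMB8 and HLA-C are lowest in the 3 sensitive mice, HLA-F is highest in the 5 resistant mice, and TAP1 and PSMB9 are highest in the 5 vehicle mice.

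The tested genes outside the 9 whose log2 values were most like B2M over the 13 mice were TOR1A (r = 0.95), S100A13 (0.95), TRAPPC3 (0.94), INO80E (0.94) and BOLA2 (0.94). Those most like the mean z-score of the 9 genes were SRXN1 (r = 0.93), NFKBIB (0.92), JMJD7-PLA2G4B (0.91), NUDT1 (0.89) and GBP3 (0.89). For deviations from the group means these r were 0.69, 0.69, 0.69, 0.73 and 0.83 for the first 5 genes, and 0.70, 0.54, 0.69, 0.37 and 0.59 for the others. They are the top of 14079 genes searched, and they say nothing of shared function.

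Of the rest of the pathway, 9 of 13 listed class I and class I-like heavy chain genes outside the 9 were tested. Of these, 2 fell in sensitive versus vehicle tumors, 4 rose in resistant versus sensitive tumors, and 5 rose and 1 fell in resistant versus vehicle tumors, against 12.6% of all genes called lower in the first comparison, 9.56% higher in the second, and 11.5% higher and 32.5% lower in the last. MICB, a stress-induced ligand of the NKG2D receptor of natural killer cells, averaged 13.2 TPM in resistant, 2.56 TPM in sensitive and 7.57 TPM in vehicle tumors. Its change was 2.02 in resistant versus sensitive (adjusted p = 6.22e-05), -1.19 in sensitive versus vehicle (adjusted p = 5.13e-04) and 0.84 in resistant versus vehicle tumors (adjusted p = 0.00416). ULBP2, another NKG2D ligand, changed by 1.05, -0.42 and 0.65 in the same comparisons and was called in each. MR1, which presents vitamin B metabolites to MAIT cells, rose by 0.67 against sensitive and by 0.71 against vehicle tumors in resistant ones. PROCR, the endothelial protein C receptor, rose by 1.09 and 1.04.

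Few genes of the loading complex and of peptide trimming were called. Of 14 tested, none was called in sensitive versus vehicle tumors, where 3.16% of all genes were called higher and 12.6% lower; 1 of the 14 had an unadjusted limma p under 0.05, and the median change was 0.10. The chaperone gene CANX was lower in resistant than in sensitive tumors (-0.22, adjusted p = 0.0152), the only call there. Over all genes, 9.56% were called higher and 11.6% lower in that comparison. In resistant versus vehicle tumors 3 rose and 2 fell, where 11.5% of all genes were called higher and 32.5% lower. By adjusted p the first were NPEPPS, a cytosolic aminopeptidase, at 0.65 (adjusted p = 0.00356), and TAPBPL, a peptide editor of class I, at 0.52 (adjusted p = 0.0112). CANX at -0.06 and HSPA5 at 0.47 followed. The call of CANX rests on its fitted change, from which the median of all genes (-0.14) is not taken off.

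Of 9 other proteasome and activator genes tested, PSMB6 (-0.24, adjusted p = 0.0147) and PSMB7 (-0.18, adjusted p = 0.0155) fell in sensitive versus vehicle tumors, none was called in resistant versus sensitive tumors, and PSME1, a subunit of the interferon-induced PA28 activator, fell in resistant versus vehicle tumors (-0.18, adjusted p = 0.00183). Over all genes, 12.6%, 11.6% and 32.5% were called lower and 3.16%, 9.56% and 11.5% higher in these comparisons. PSMB5 was not called in any comparison, with 244 TPM in resistant, 226 TPM in sensitive and 255 TPM in vehicle tumors. PSMB10, which encodes the remaining catalytic subunit of the immunoproteasome, averaged 12.8, 12.5 and 12.3 TPM in the same groups and was not called.

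Of the factors known to act on class I promoters, 19 of 21 were tested. NLRC5 and IRF1 were not called in any comparison. NLRC5 averaged 1.06 TPM in resistant, 0.782 TPM in sensitive and 0.750 TPM in vehicle tumors, and IRF1 averaged 8.96, 5.35 and 7.30 TPM in the same groups. In sensitive versus vehicle tumors STAT3 rose (0.51, adjusted p = 0.00433) and NFYC fell (-0.23, adjusted p = 0.0228). Over all genes, 3.16% were called higher and 12.6% lower there. In resistant versus sensitive tumors 4 fell and none rose, where 11.6% of all genes were called lower and 9.56% higher. These were NFYA, NFYB, CREB1 and ATF1, which fell by 0.26 to 0.38. In resistant versus vehicle tumors STAT3 rose (0.57, adjusted p = 6.09e-04) and 9 fell, where 32.5% of all genes were called lower, among them NFYB (-0.48, adjusted p = 3.79e-04) and CREB1 (-0.53, adjusted p = 5.23e-04), which bind CCAAT and CRE-like sequences.

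JAK1, a kinase bound to interferon receptors, rose by 0.64 in resistant versus sensitive and by 0.83 in resistant versus vehicle tumors (adjusted p = 0.00118 and 3.00e-05), and JAK2 by 1.32 and 1.67 (adjusted p = 0.00336 and 9.17e-05). IFNGR2, the second chain of the interferon gamma receptor, fell by 0.31 and 0.27 in the same comparisons (adjusted p = 0.00568 and 2.77e-04). Of 15 tested, 3 fell and none rose in sensitive versus vehicle tumors, 2 rose and 3 fell in resistant versus sensitive tumors, and 2 rose and 4 fell in resistant versus vehicle tumors. Of all genes, 3.16%, 9.56% and 11.5% were called higher and 12.6%, 11.6% and 32.5% lower in these comparisons. PTPN2, a phosphatase that restrains JAK signalling, fell by 0.25 in sensitive versus vehicle, 0.21 in resistant versus sensitive and 0.45 in resistant versus vehicle tumors. The interferon genes IFNB1, IFNA1, IFNG and IFNL3 were listed at 0 in every library. IFNL1, IFNL2 and IFNE, also listed, reached at most 0.38, 0.15 and 0.07 TPM in any mouse.

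Of the interferon response genes 20 of 32 were tested. In sensitive versus vehicle tumors 2 fell, OAS3 (-0.80, adjusted p = 0.00781) and IFI35 (-0.40, adjusted p = 0.0451), and the median change was -0.21. Over all genes, 12.6% were called lower and 3.16% higher there. In resistant versus sensitive tumors 8 rose and none fell, with a median of 0.58, where 9.56% of all genes were called higher and 11.6% lower. Among them were SAMD9 (0.92, adjusted p = 0.00259), IFI35 (0.76, adjusted p = 0.00537) and IFI6 (2.42, adjusted p = 0.00637). In resistant versus vehicle tumors 6 rose and none fell, with a median of 0.39, where 11.5% of all genes were called higher and 32.5% lower. IFI6 changed by 2.23 there, and IFITM2, with the lowest adjusted p of the list, by 0.84 (adjusted p = 7.50e-04). Resistant mouse 9-7, the highest in B2M, stood far above the other resistant mice in several of these genes. IFI6 was at 208 TPM in mouse 9-7 and at 23.3 to 57.9 TPM in the other resistant mice, and ISG15 at 38.8 TPM against 6.36 to 19.9 TPM. Without mouse 9-7, an alternative chosen after seeing the data, 18 genes of the list were tested. In resistant versus sensitive tumors 5 were then called higher and none lower, and in resistant versus vehicle tumors 5 higher and 3 lower (BST2, OAS3 and SP110). Of the 14023 genes of that fit, 1122 were called higher and 1340 lower in the first comparison, and 1425 and 4331 in the second. Of 11 tested nucleic acid sensor genes, none was called in sensitive versus vehicle tumors (4 at an unadjusted limma p under 0.05). Among them 3 rose and 1 fell in resistant versus sensitive tumors, and 4 rose and 4 fell in resistant versus vehicle tumors. Over all genes, 3.16%, 9.56% and 11.5% were called higher and 12.6%, 11.6% and 32.5% lower in these comparisons. The STING gene, TMEM173 in the table, changed by 0.72 in resistant versus sensitive (adjusted p = 0.0127) and by 0.96 in resistant versus vehicle tumors (adjusted p = 5.64e-04).

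Of 12 MHC class II genes 3 were tested. HLA-DQB1 (6.88 TPM in resistant, 6.17 TPM in sensitive and 5.85 TPM in vehicle tumors) and HLA-DMA (4.11, 3.05 and 3.90 TPM in the same groups) were not called. CD74, the invariant chain, was at 1.29 TPM in resistant, 2.15 TPM in sensitive and 0.544 TPM in vehicle tumors, and was called higher in sensitive versus vehicle (1.03, adjusted p = 0.0207) and in resistant versus vehicle tumors (0.74, adjusted p = 0.0366). The groups overlapped for CD74 in both comparisons, in which 3.16% and 11.5% of all genes were called higher. Of 10 other surface genes that immune cells read, 5 were called higher and none lower in resistant versus sensitive tumors (9.56% and 11.6% of all genes). Against vehicle tumors 5 were called higher in resistant tumors and FAS lower (11.5% and 32.5% of all genes). ICAM1, the ligand of LFA-1, changed by 1.12 and 1.43 in these comparisons, and VTCN1, a B7 family inhibitor of T cells, by 1.62 and 1.21. In sensitive versus vehicle tumors FAS (-0.88) and CD47 (-0.32) fell, where 12.6% of all genes were called lower. Of 10 genes of DNA methylation and EZH2, some of which can silence class I genes, none rose in any comparison. Of the 10, 6 fell in sensitive versus vehicle, 4 in resistant versus sensitive and 8 in resistant versus vehicle tumors. Over all genes, 12.6%, 11.6% and 32.5% were called lower in these comparisons. The list also holds TET1, TET2 and TET3, which encode enzymes that remove DNA methylation. TET2 and TET3 were among those that fell in resistant tumors, changing by -0.66 and -0.69 against sensitive and by -0.55 and -0.79 against vehicle. EZH2 had the lowest adjusted p of the 10 in sensitive versus vehicle tumors (2.99e-06). It averaged 7.53 TPM in resistant, 7.43 TPM in sensitive and 23.5 TPM in vehicle tumors.

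Markers were read beside these results, and in bulk tumors fewer cells of a type and less RNA per cell cannot be told apart. The markers are human genes, while leukocytes, fibroblasts and vessels in these tumors come from the mouse host. How mouse reads were handled is not stated, so sums of such markers do not measure host cells. All 10 luminal breast markers were above 1 TPM in every mouse, a low bar at their levels. Against vehicle, resistant tumors had TFF1 (4.29) and KRT19 (0.93) called higher and GATA3 (-0.52), EPCAM (-0.16) and FOXA1 (-0.10) lower. Over all genes, 11.5% were called higher and 32.5% lower there. Sensitive tumors had TFF1 (2.24) higher and GATA3 (-0.37) lower than vehicle tumors, where 3.16% and 12.6% of all genes were called. Against sensitive tumors, resistant ones had TFF1 (2.04), KRT8 (0.68), KRT18 (0.57) and KRT19 (0.56) called higher and none lower. In that comparison 9.56% of all genes were called higher and 11.6% lower. The summed TPM of 12 leukocyte and myeloid markers was 11.9 to 20.7 in resistant, 9.05 to 11.9 in sensitive and 6.69 to 10.5 in vehicle tumors. CD68, LYZ and FCER1G made most of the difference, with CD68 at 7.97 TPM and LYZ at 3.08 TPM in resistant tumors. CSF1R, the macrophage growth factor receptor, fell to 0.076 TPM in resistant tumors, against 1.33 TPM in sensitive (-1.06, adjusted p = 0.00454) and 0.662 TPM in vehicle tumors (-0.43, adjusted p = 0.0294), and the leukocyte gene PTPRC was at or near 0 and AIF1 and TYROBP were listed at 0 in every library. The 12 lymphocyte markers summed to 2.26 to 3.43 TPM in resistant, 3.11 to 4.19 in sensitive and 1.75 to 3.41 in vehicle tumors, with 11 of 12 under 1 TPM in every mouse of each group. The 9 fibroblast markers summed to 4.58 to 10.5 TPM in resistant, 5.76 to 8.36 in sensitive and 7.81 to 13.3 in vehicle tumors, with 8 of 9 under 1 TPM in every mouse. The 7 endothelial markers summed to at most 1.14 TPM in any mouse. The 6 proliferation markers summed to 101 to 219 TPM in resistant, 63.4 to 98.7 in sensitive and 399 to 550 in vehicle tumors. The part of these in the class I results was not tested, nor was that of TFF1, which alone took 1.2% of all TPM in resistant, 0.308% in sensitive and 0.0988% in vehicle tumors.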

How the data were processed

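Bulk RNA sequencing gave a table of 26 libraries, 2 from each of 13 mice. The authors deposited TPM values per gene and library (sums of 999850 to 999889), in which a gene's share of transcripts is scaled to a fixed total. Per the submitters' processing notes, FastQC, STAR, HTSeq and RSEM and the builds GRCh38 and GRCm38 were used; versions, roles, the handling of mouse reads and the use of strand are not stated in the labels. TPM keep no record of depth, so depth is unknown and no counting interval or floor is given. The entry with no gene (1.49 to 5.51 TPM) was left out, and between 16914 and 17662 genes were above 0 per library.

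Libraries A and B of a mouse were averaged as log2(TPM + 1) (correlation across genes 0.989 to 0.994; genes are not replicates), and the filter kept genes whose mean reached 1 TPM in 3 or more mice. Each limma test with the trend option (limma 3.58.1, R 4.3.3) used all 13 mice in 1 model, with Benjamini-Hochberg adjustment over 14079 genes, two-sided, at 0.05. Log2 changes are relative to the median of all genes (-0.07 in sensitive versus vehicle, -0.05 in resistant versus sensitive and -0.14 in resistant versus vehicle), because other scalings move it; SE and adjusted p are as fitted. A pseudocount understates the change of low genes. The labels name each mouse of a group, and p values measure the spread between these mice. Ratios used exact permutation tests (Python 3.11.15, SciPy 1.17.1).

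The 9 genes, the other lists and the alternatives were chosen with earlier results of these data known. Named genes are the 9, up to 4 called genes of each other list in a comparison by adjusted p, the constitutive subunits, NLRC5 and IRF1, and the 5 genes most like B2M or the mean of the 9; the choice among these was made after their values were seen, and some genes the rule takes are not reported here. Sequences are from RefSeq (GRCh38.p14), with 250 bases before each start.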

Additional observations from a re-analysis of the deposited data

Results flagged for a closer look

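In groups of 5 mice, a mouse was set apart where its gap to the nearest other mouse was a large share of the group's range (Dixon's criterion at 95%); chance does this in about 1 in 20 groups, and 26 groups were looked at. Resistant mouse 9-7 had 502 TPM of B2M, where the other resistant mice had 353 to 384 TPM. Resistant mouse 9-6 had 0.830 TPM of PSMB9, where the others had 1.86 to 2.18 TPM, and its log2 ratio of PSMB9 to PSMB6 was -7.36, where the others had -6.36 to -6.03. Vehicle mouse 1-2 had 23.3 TPM of TAP1 against 24.9 to 25.3 TPM in the other vehicle mice, and 13.8 TPM of TAP2 against 16.7 to 17.9 TPM. Its log2 ratio of TAP1 to TAP2 was 0.76, where the others had 0.50 to 0.57. Why these mice stood apart was not tested.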

How the results depend on the processing

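Of the 27 changes of the 9 genes, 17 stayed on their side of the threshold under every one of up to 25 alternatives, and 636 of 672 values did so; none reversed a call. Counts of the 9 genes called higher in resistant versus vehicle tumors, 2 as reported, were 5 with median-of-ratios scaling, 5 with quantile normalization, 4 over 26 libraries with the mouse as a random block, and 2 to 4 without single mice; those called lower, 2 as reported, were 1 with either scaling and 1 with a filter at 5 TPM, which PSMB9 does not pass. The letters A and B pair libraries of different mice only by name; with the letter as a replicate block over 26 libraries, the higher and lower counts were 0 and 4 in sensitive versus vehicle, 5 and 0 in resistant versus sensitive, and 4 and 3 in resistant versus vehicle tumors. Both fits over 26 libraries added HLA-E in resistant versus sensitive tumors, and HLA-C and HLA-E higher and TAP2 lower in resistant versus vehicle tumors.

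Over all genes in sensitive versus vehicle tumors, higher calls were 771 with median-of-ratios scaling, 938 with quantile normalization, 232 with the compared groups alone, 1023 with weights per mouse, 243 in A libraries alone and 99 to 544 without single mice; lower calls were 1066, 989 and, with weights, 3390, and 802 to 1911 without single mice. In resistant versus sensitive tumors, higher calls were 2036 with weights and 675 to 1594 without single mice; lower calls were 1086 in A libraries alone and 690 to 1977 without single mice. In resistant versus vehicle tumors, median-of-ratios scaling gave 2540 higher and 2439 lower calls, and quantile normalization 2773 lower calls.

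The ratio differences lost their calls in A libraries alone, in B libraries alone and with a pseudocount of 1 TPM. PSMB8 to PSMB5 was then -0.34, -0.39 and -0.35 in sensitive versus vehicle (-0.42 to -0.27 without single mice), and 0.58, 0.48 and 0.51 in resistant versus sensitive tumors (0.44 to 0.59). In resistant versus vehicle tumors it was 0.12 to 0.21 without single mice, and called without mouse 9-3 (exact permutation adjusted p = 0.0490). PSMB9 to PSMB6 was -1.38, -1.01 and -0.67 in sensitive versus vehicle (-1.38 to -0.88), and -1.06, -0.88 and -0.63 in resistant versus vehicle tumors (-1.15 to -0.74). The heavy chains to B2M were 0.48, 0.57 and 0.52 in sensitive versus vehicle (0.47 to 0.58), and -0.58, -0.66 and -0.62 in resistant versus sensitive tumors (-0.67 to -0.57). Leaving out a mouse also raises the smallest p these tests can give. Unknown depth limits PSMB9 most.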
